A study of Mus musculus with 4 samples.

Results

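The interaction of genotype and TNF was described in primary mouse chondrocytes, gene by gene, as the log2 difference between cells with and without TNF on the arrays labelled CKO minus the same difference on the Control arrays. A negative interaction of a gene that rose with TNF is a weaker TNF response on the arrays labelled CKO, and a positive one is a stronger response. Genes entered when their probe was well above background on all 4 arrays, which 20506 of 37042 genes were (26894 of 55619 probes), and 13356 of them have a gene symbol. The rule for entry used the background calls and not the size of a difference.

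Chondrocytes, the cells of cartilage, came from 6-day-old mice of the strain C57BL/6J, either Prrx1-Cre;Rela fl/fl (labelled CKO) or Rela fl/fl littermates without the Cre transgene (labelled Control), and were cultured for 3 days with 10 ng/mL TNF or without it. Both genotypes carry 2 floxed alleles of Rela. The Prrx1 promoter drives Cre in limb mesenchyme, the tissue from which limb chondrocytes arise. Each of the 4 combinations was read on 1 array, so no difference has a replicate, no test of the interaction was possible and no p-value is given, and the number of arrays limits the precision.

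TNF binds its receptors and, through the adaptor Traf2, the ligases Birc2 and Birc3 and the IKK kinases, frees NF-κB dimers such as that of Rela and Nfkb1 to enter the nucleus. There they turn on genes for chemokines, acute-phase and complement proteins and matrix-degrading enzymes, and also inhibitors such as Nfkbia and Tnfaip3 that end the signal. In cartilage, TNF is known for raising matrix breakdown and for chondrocyte death that NF-κB target genes restrain. The question of the comparison is which of these responses differ between the cells labelled CKO and those labelled Control.

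Rela itself had signals of 28.4 without and 34.9 with TNF on the Control arrays and of 34.0 and 40.2 on the arrays labelled CKO, where a signal of 1 is the 75th percentile of the intensities of an array. Both signals were higher on the arrays labelled CKO, and whether its 1 probe lies in the deleted part of the gene is not given in the sources used here. The label was therefore not checked by this gene. All 10 chondrocyte markers were well above background on every array, with summed signals of 1675, 1597, 1335 and 1362 (Control without and with TNF, then CKO without and with TNF), and the fibroblast-like markers had sums of 810, 832, 712 and 726. Of 22 leukocyte and macrophage markers with a probe, 11 were well above background on all 4 arrays, their summed signal lay between 39.3 and 49.4, and the pan-leukocyte gene Ptprc and the myeloid regulator Spi1 were well above background on none. The Y-linked genes Ddx3y (1.31 and 1.302 on the Control arrays, 3.67 and 4.24 on the arrays labelled CKO) and Eif2s3y (1.78 and 1.84 against 6.24 and 6.54) were higher on both arrays labelled CKO, while Xist, which silences the X chromosome, passed the background call on the Control arrays only. A different sex makeup of the cultures and the genotype cannot be told apart in any interaction below, and in these bulk cultures fewer cells of a type and less RNA per cell cannot be told apart either.

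The 75th percentiles of the 4 arrays lay between 589 and 633 intensity units, and no spot was saturated. Bright patches of neighbouring spots on single arrays covered between 1.04% (CKO with TNF) and 10.7% (Control without TNF) of the spots. A bright patch on 1 array gives an interaction on its own, so the counts over all genes are also given for the 14937 genes with no spot in a patch. The spread between the spots of a probe that is printed 10 times gives an interaction a technical SD of 0.20 on the log2 scale. An interaction within 2 such SDs, or 0.39, is called equal here, although this spread covers neither separate cultures nor separate arrays.

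Most genes had an equal TNF difference in both genotypes. The interaction was within 2 technical SDs in 16795 genes (81.9%), and in 12672 (84.8%) of those outside patches, with a median of 0.05 in both. Beyond that range 1951 genes were lower (9.51%) and 1760 higher (8.58%), or 1187 (7.95%) and 1078 (7.22%) outside patches. An interaction of at least 2-fold (1 on the log2 scale) was negative in 464 genes (2.26%) and positive in 318 (1.55%). Outside patches these were 152 (1.02%) and 85 (0.569%). Of the 152, 86 fell by at least 2-fold on the arrays labelled CKO and 24 rose by at least 2-fold on the Control arrays, so the negative count is not one of weaker rises alone. The split depended on the scale set between arrays: it was 396 negative and 391 positive with the array median, 413 and 384 with quantile normalization and 566 and 268 with no scaling. By sign alone, whatever the size, 41.4% of all genes had a negative interaction and 58.6% a positive one, and the list counts below are to be read against these shares and against the 81.9% that were equal. The SD of the interaction was 0.75 over the genes with a spot in a patch and 0.33 over the others. Signal strength moved with it as well. Among genes outside patches with a mean signal of at least 1, 0.125% were at or below -1 and 0.0997% at or above 1, while for a mean signal under 0.25 the shares were 3.22% and 1.76%. The equal share was 94.0% in the former and 64.0% in the latter. The technical SD came only from probes with all spots well above background, and it was applied to dim genes as well. Across the 14937 genes the TNF differences of the 2 genotypes, which share no array, had a Pearson r of 0.22, and of 0.31 over the 8024 with a mean signal of at least 1, as a description.

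**Figure D1:**
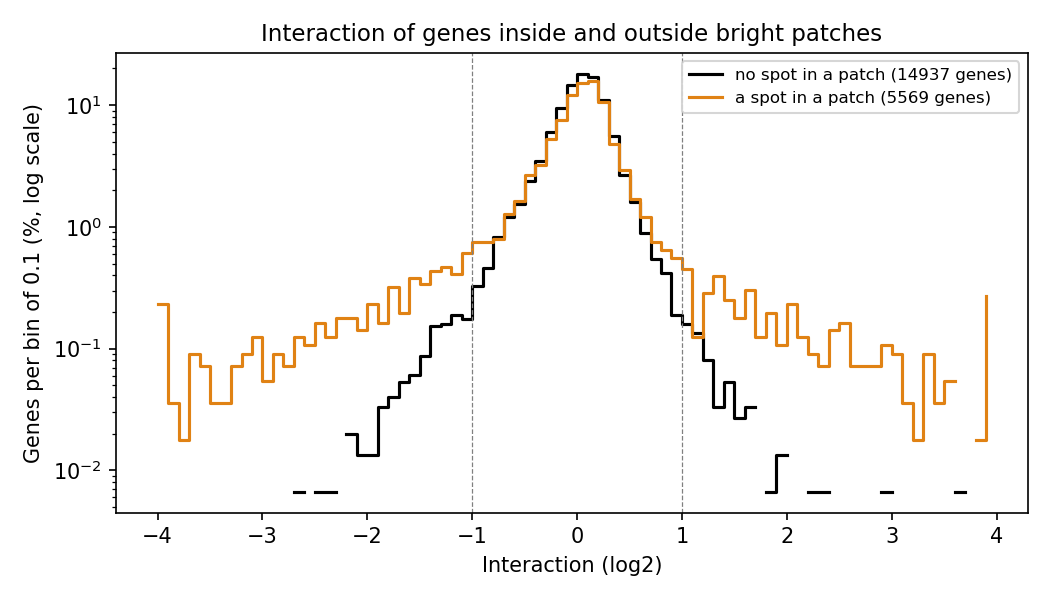
The share of genes (%, log scale) is plotted against the interaction (log2) in bins of 0.1, for genes with a spot in a bright patch and for genes without one. Values beyond 4 are counted in the end bins, and the dashed lines mark -1 and 1, beyond which the genes with a spot in a patch hold the larger share in both directions.

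Genes that rose with TNF were taken by the mean of their 2 TNF differences (at least 1 on the log2 scale), since taking them by 1 genotype alone pushes the interaction to 1 side. There were 95 (0.463%), of which 68 were at least 2-fold weaker on the arrays labelled CKO, 9 at least 2-fold stronger, 5 equal and 13 in between, but 69 of the 95 had a spot in a patch. Outside patches 26 genes rose (0.174%). Of these, 10 were weaker, 5 stronger, 1 equal and 10 in between, and 17 had a negative interaction. The choice by the mean sets part of this split. A gene that responded in 1 genotype alone enters only with a large difference there, and so with a large interaction. Chil1, C3 and Gbp2 entered in this way through the Control arrays, and Tslp, Sema7a, Gjb2 and Krt18 through the arrays labelled CKO.

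The 10 weaker genes outside patches differ in role. Mmp3, which encodes stromelysin-1, an enzyme that degrades proteoglycans, had signals of 0.616 without and 15.3 with TNF on the Control arrays and of 0.249 and 1.47 on the arrays labelled CKO. It thus rose on both, by 4.64 and 2.56 on the log2 scale, with an interaction of -2.08. C3, the central complement component, had signals of 1.09 and 5.66 on the Control arrays against 0.788 and 0.914 (interaction -2.16). Its second probe, printed 10 times and partly in a patch, had TNF differences of 3.40 and 1.24 and an interaction of -2.15.

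Chil1, a chitinase-like protein secreted by activated chondrocytes, went from 0.637 to 3.76 on the Control arrays and had 0.244 and 0.270 on the arrays labelled CKO (interaction -2.41). Gbp2, a GTPase induced by interferon, had 0.296 and 1.25 against 0.302 and 0.354 (interaction -1.85). Both rose on the Control arrays alone, and without TNF Gbp2 had nearly the same signal in both genotypes.

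Among the neutrophil-attracting chemokines, Cxcl1 had signals of 0.221 and 1.78 on the Control arrays and of 0.129 and 0.361 on the arrays labelled CKO (interaction -1.52). Cxcl5 had 1.02 and 6.36 against 0.686 and 1.72 (interaction -1.31). Both rose in both genotypes, by less on the arrays labelled CKO. Tnfaip3, the ubiquitin-editing inhibitor A20 that ends NF-κB signalling, had 0.254 and 0.874 against 0.241 and 0.343, an interaction of -1.27, again from like signals without TNF.

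The other weaker genes were Cck, a peptide hormone (-1.10), Slfn2, a gene of the Schlafen family (-1.14), and Nkx1-2, a homeobox gene (-1.46). They are less firmly placed. The second probe of Nkx1-2 had an interaction of 0.57, the opposite sign, and Slfn2 and Cck were dim, with no signal over 0.571. With another background correction (normexp) the interaction of Nkx1-2 was -0.72, that of Slfn2 -0.55 and that of Cck -0.93. Quantile normalization also took Slfn2 (-0.93) and Cck (-0.94) above -1, as did the array median for Cck (-0.98) and the mean over probes for Nkx1-2 (-0.45), while the other 7 weaker genes passed -1 under every scaling, background and probe setting tried.

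Promoter windows of some of these genes hold letters that read as the sites NF-κB and AP-1 are known for, and they are shown because the comparison asks about an NF-κB subunit. A κB motif (the 10-base form beginning with GGG and ending with CC, both strands) and the AP-1 motif TGANTCA (both strands) were searched from 250 bases before to 50 after the start site in the RefSeq promoter table (GRCm38.p6). A κB match was in 9.55% of all 27025 promoters of the table and in 12.3% of the genes described here that have one, and an AP-1 match in 8.97% and 6.45%. Of the 9 weaker genes whose promoter is listed there, 5 held a κB match (Chil1, Cxcl1, Gbp2, Nkx1-2, Tnfaip3), as did 2 of the 4 stronger ones (Gjb2, Krt18) and 2 of the 7 in between (Casp4, Nfkbia). An AP-1 match was in Gbp2, Mmp3 and Tnfaip3. A match is a description of letters, not of binding, and weaker and stronger genes both held κB matches. The windows below read 5′ to 3′ in the direction of the gene, with the motif in capitals, which spell the reverse complement where the match is on the other strand.
Cxcl1, κB, chr5:90891164-90891193, plus strand: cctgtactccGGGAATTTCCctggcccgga
Chil1, κB, chr1:134181967-134181996, plus strand: ggagggatttGGGACTCCCCtctccactcc
Gbp2, κB, chr3:142620660-142620689, plus strand: gcaaaaatctGGAACTTCCCgggttactac
Tnfaip3, κB, chr10:19015403-19015432, minus strand: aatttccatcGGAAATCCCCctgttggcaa
Nfkbia, κB, chr12:55492657-55492686, minus strand: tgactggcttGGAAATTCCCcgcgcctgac
Mmp3, AP-1, chr9:7445766-7445792, plus strand: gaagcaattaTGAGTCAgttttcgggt
Krt18, κB, chr15:102028159-102028188, plus strand: ggcctgctggGGGAGGTCCCtacctcctcc
Gjb2, κB, chr14:57104817-57104846, minus strand: ctgggtgcccGGAGAGCCCCgcccgtggcg

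**Figure D2:**
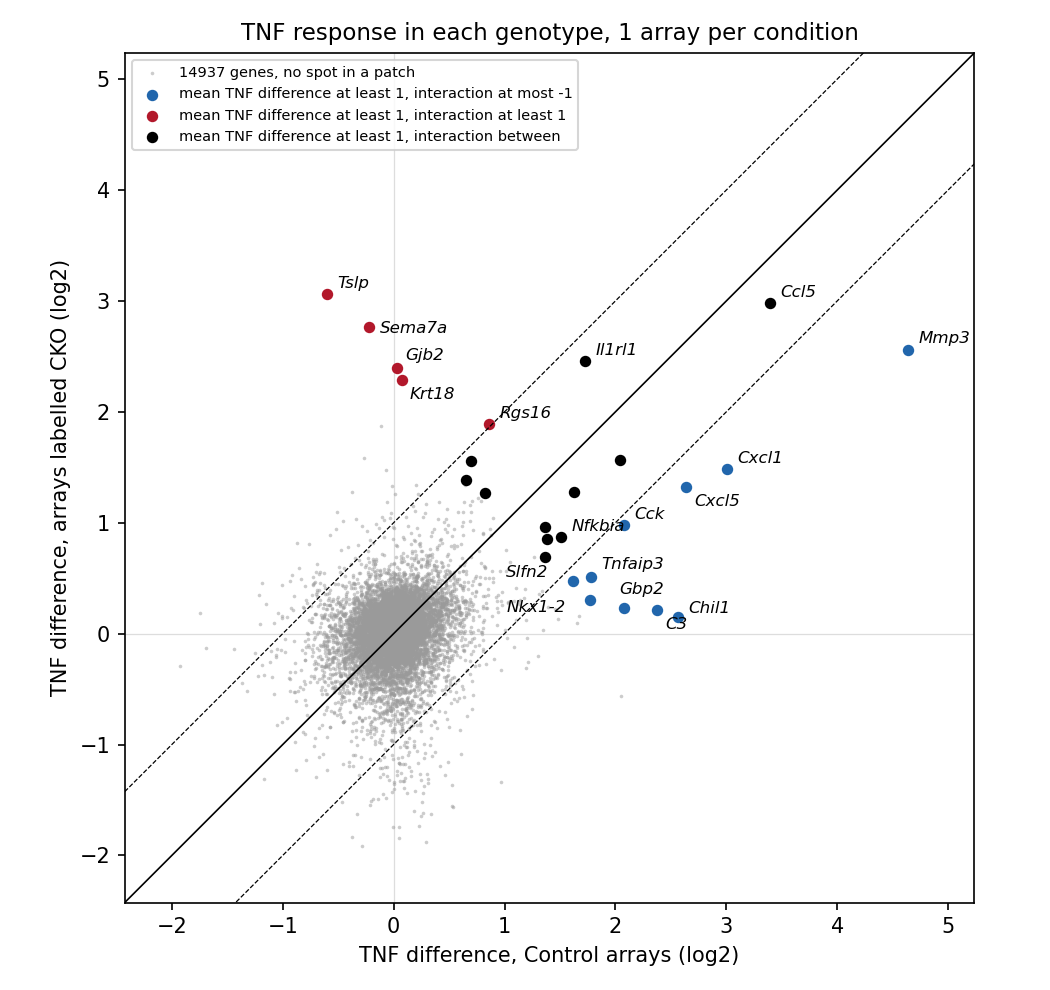
The TNF difference on the arrays labelled CKO (log2) is plotted against that on the Control arrays (log2) for 14937 genes with no spot in a patch. The solid line marks equal differences, the dashed lines an interaction of -1 and 1, and the coloured points the 26 genes that rose with TNF, among them Mmp3 (4.64 and 2.56) below and Tslp (-0.61 and 3.06) above the lines.

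By function, the lists with the most negative median interaction were those of acute-phase and antimicrobial proteins (-0.86), MHC class I presentation (-0.30), chemokines (-0.28) and complement (-0.27), against a median of 0.05 over all genes. The median was above that of all genes for prostaglandin and nitric oxide synthesis (0.19), and 0.02 for the cytokines and colony-stimulating factors (4 of 11 genes negative). The 7 acute-phase and antimicrobial genes had median TNF differences of 1.21 on the Control arrays and 0.15 on the arrays labelled CKO. In this list 3 were at or below -1 (Hp, Chil1 and Lbp), 2 were equal and 6 were negative. The summed signals of the leukocyte markers given above were lower with TNF in both genotypes (44.2 and 40.0 on the Control arrays, 49.4 and 39.3 on the arrays labelled CKO), but Itgam, an integrin subunit named after its values were seen, made up most of each sum (35.1 and 32.4 against 40.4 and 31.8). Without Itgam and the markers with a spot in a patch, the sums of the other 13 were 7.44 and 6.88 against 6.43 and 7.20. Of the 11 markers with an interaction 3 were equal, 5 were above and 3 below 2 technical SDs, with a median of 0.18. Over all genes these shares were 81.9%, 8.58% and 9.51%. The part of these cells in the list values was not tested.

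Saa1, an acute-phase apolipoprotein, had signals of 3.59 and 8.12 on the Control arrays and of 2.99 and 3.72 on the arrays labelled CKO (interaction -0.86). Lbp, which binds bacterial lipopolysaccharide and was named after its values were seen, had 0.847 and 1.97 against 0.567 and 0.475 (interaction -1.47). Lcn2, an iron-trapping antimicrobial protein with a spot in a patch, had TNF differences of 1.36 and 1.18 and an equal response (-0.18). Cp, the copper-carrying ferroxidase ceruloplasmin, was the other equal gene, named after its values were seen, with 5.87 and 6.59 against 4.34 and 5.15 (0.08). Hp, the haemoglobin-binding protein haptoglobin, had the most negative value of the list (-3.18) with a spot in a patch, and over the 5 genes outside patches the median was again -0.86.

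Of 12 complement genes, 2 were at or below -1, 8 were equal and the median was -0.27, with 7 of 10 equal outside patches. The 2 were C3 and Cfb, the protease of the alternative pathway, whose signals of 0.502 and 2.29 against 0.209 and 0.253 (interaction -1.92) include a spot in a patch. The classical pathway protease C1s1 had 5.199 and 8.45 against 4.09 and 4.11 (-0.69), and its partner C1ra had 8.44 and 12.3 against 7.90 and 9.02 (-0.35, equal).

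The 17 chemokines had a median of -0.28 and went both ways, with 5 at or below -1, 2 at or above 1 and 7 equal. Below were Cxcl1, Cxcl5 and, each with a spot in a patch, the monocyte attractants Ccl2 and Ccl7 and the platelet chemokine Ppbp. Ccl2 had the largest TNF difference on the Control arrays among the named chemokines, from 0.920 to 29.8, against 0.916 to 8.23 on the arrays labelled CKO (interaction -1.85), and its probe is printed 10 times. Ccl5, a T cell and monocyte attractant, rose in both, from 0.127 to 1.34 and from 0.0417 to 0.330, with an interaction of -0.41, just past the equal range. The 2 at or above 1, Ccl17 (2.44) and Cxcl10 (1.42), both had a spot in a patch. Cx3cl1, a membrane-bound chemokine named after its values were seen, had 5.23 and 6.97 against 5.13 and 11.7 (interaction 0.77). Cxcl12, which attracts lymphocytes and stem cells and was also named after its values were seen, had 25.8 and 40.8 against 12.9 and 10.3 (interaction -0.99, and -0.96 by its second probe), with neither probe in a patch. Of the 10 chemokines outside patches, 2 were at or below -1 and none at or above 1, with a median of -0.34.

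The interferon response and MHC class I presentation had mostly negative interactions. Of 31 interferon-response genes 28 were negative and 24 equal, the latter a share of 77.4% that is near that of all genes, with a median of -0.22 (TNF differences of 0.24 on the Control arrays and 0.00 on the arrays labelled CKO). Outside patches 20 of 23 were equal. At or below -1 were 5, all of them induced by interferon: Gbp2 and Gbp6 outside patches, and Gbp3, Ifi44 and Iigp1 with a spot in one. Of 20 MHC class I genes 16 were negative and 13 equal (65.0%), with a median of -0.30, and 1 with a spot in a patch was at or below -1. Outside patches 8 of 12 were equal and the median was -0.24. Psmb8, a subunit of the immunoproteasome, had 0.165 and 0.427 against 0.0720 and 0.116 (-0.68), and Tapbp, which loads peptides onto class I molecules, had 5.90 and 11.2 against 5.10 and 6.27 (-0.63). H2-K1, a class I heavy chain with a spot in a patch, had TNF differences of 0.92 and 0.51.

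Of 18 matrix-degrading proteases, 3 were at or below -1 and 14 were equal, with a median of -0.19, or 2 and 8 of 11 outside patches. Besides Mmp3 these were Mmp19 (-3.61, with a spot in a patch) and Mmp13, the collagenase that cuts type II collagen. Mmp13 had 6.08 and 12.9 on the Control arrays and 12.5 and 11.5 on the arrays labelled CKO (interaction -1.20), so that without TNF its signal was already higher on the array labelled CKO. Adamts5, an aggrecanase, had 0.446 and 0.423 against 0.519 and 0.352 (-0.49) and did not reach a 2-fold TNF difference in either genotype. Its second probe, with a spot in a patch, had TNF differences of 0.34 and -0.36 and an interaction of -0.70. The inhibitor of metalloproteases Timp1 had TNF differences of 0.55 and 0.45, an equal response (-0.10), with a spot in a patch.

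The hypoxia and glycolysis genes had small interactions, most of them below 0. Of 31, 28 had a negative interaction, 26 were equal (83.9%, near the share of all genes) and none passed 2-fold, with a median TNF difference of 0.44 on the Control arrays and 0.20 on the arrays labelled CKO (median interaction -0.17). Adm, a vasodilator peptide, had 6.12 and 10.7 against 6.56 and 7.80 (-0.56). Vegfa, the growth factor of blood vessels, had 5.004 and 7.78 against 5.03 and 6.18 (-0.34, equal), and the glycolytic enzyme Pgk1 had differences of 0.49 and 0.29.

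The 14 feedback inhibitors of NF-κB had a median of -0.21, with 1 at or below -1 (Tnfaip3), 1 at or above 1 (Otud7b, with a spot in a patch) and 9 equal. Nfkbia, the inhibitor that holds Rela in the cytoplasm, had 3.50 and 9.98 on the Control arrays and 3.35 and 6.12 on the arrays labelled CKO (-0.64). Bcl3, an inhibitor-like nuclear partner of NF-κB, had 4.55 and 11.3 against 5.35 and 6.84 (-0.96). Nfkbie, another inhibitor, was within the equal range, with TNF differences of 0.82 and 0.60.

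**Figure D3:**
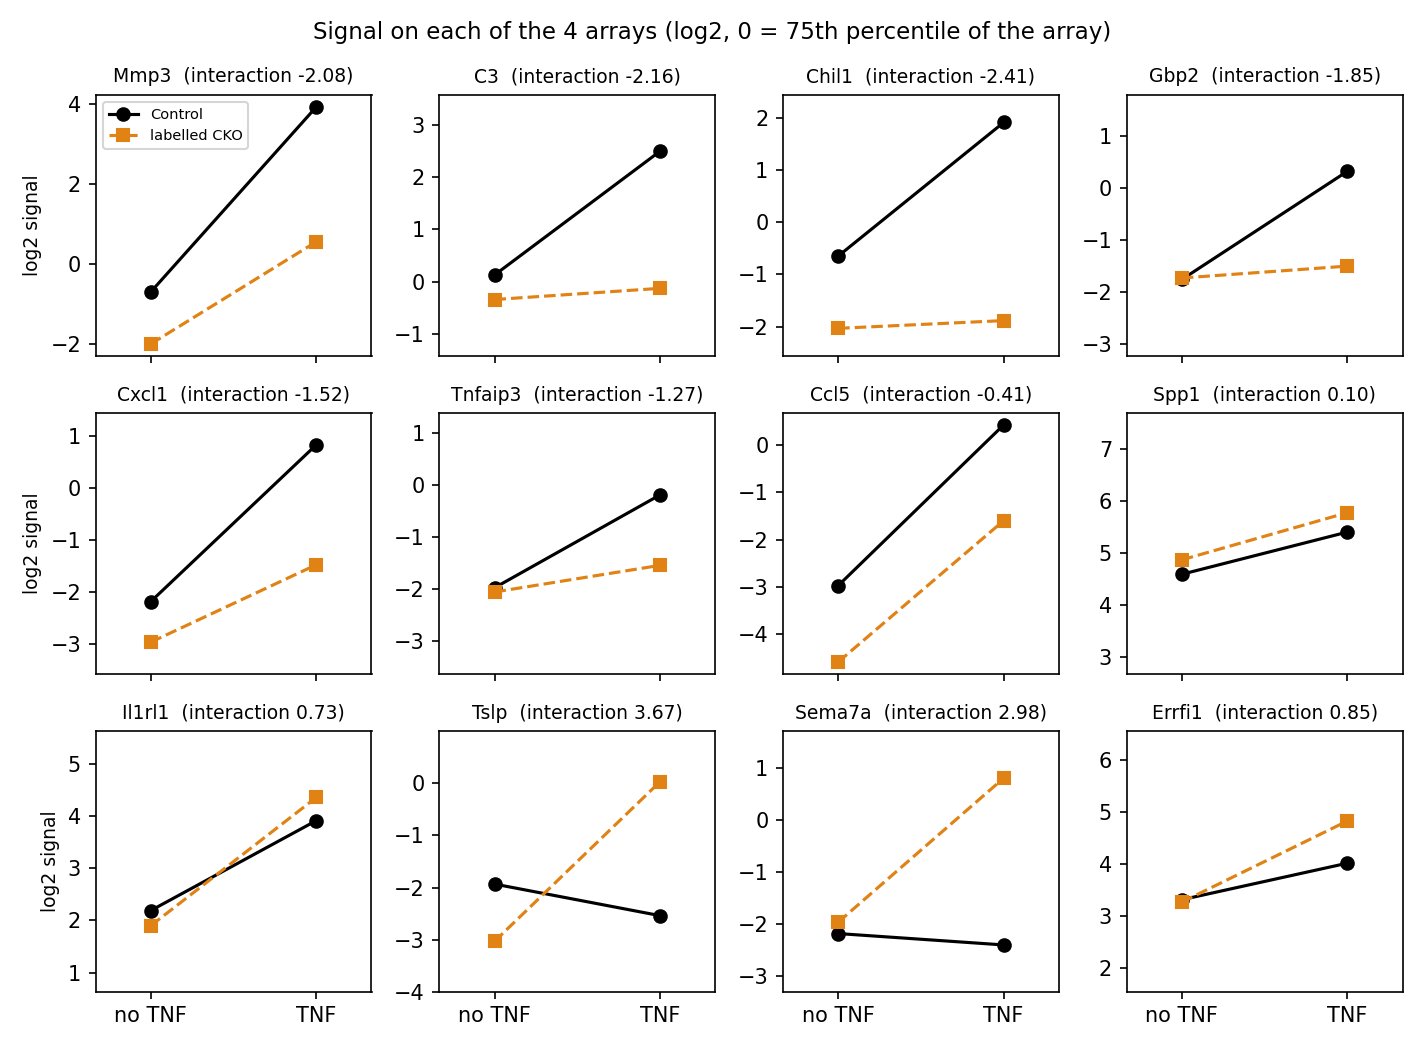
The log2 signal of 12 genes is plotted without and with TNF, 1 array per point, with circles and solid lines for Control and squares and dashed lines for the arrays labelled CKO. C3, Chil1, Gbp2 and Tnfaip3 rise by at least 2-fold on the Control arrays alone, Spp1 runs in parallel in both, and Tslp and Sema7a rise on the arrays labelled CKO alone.

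Several lists had medians near that of all genes. Of 14 NF-κB subunits and IKK kinases 13 were equal (median -0.06). The exception was Relb, a subunit of the non-canonical pathway, with 1.49 and 3.02 against 1.30 and 1.93 (-0.45) and -0.47 by its second probe. Nfkb2, its partner, had differences of 0.75 and 0.66, with a spot in a patch. Of the p53 targets 17 of 18 were equal (median 0.04), of the mitosis genes 33 of 35 (0.05), of the cholesterol synthesis genes 18 of 22 (0.01) and of the genes of hyaluronan and glycosaminoglycan synthesis 24 of 28 (0.01). All 14 reference genes were equal (median 0.12). Since 81.9% of all genes were equal, the last 2 functions were at the background (81.8% and 85.7%), and equal counts say little about any of these lists.

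Spp1, the matrix protein osteopontin, had signals of 24.1 and 42.3 on the Control arrays and of 29.2 and 54.7 on the arrays labelled CKO, with TNF differences of 0.81 and 0.90 (interaction 0.10). Its signals ran in parallel in both genotypes. Mt2, a metal-binding protein, had TNF differences of 0.66 and 0.57, and Plat, an activator of plasminogen, of 0.68 and 0.51, each with a spot in a patch.

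Of 21 anti-apoptotic genes 16 were equal, 1 was at or below -1 (Tnfaip3) and 1 at or above 1 (Traf1), with a median of -0.00. Of 29 pro-apoptotic genes 25 were equal (median 0.06). Among the genes that the study named, Traf2 had 10.7 and 13.4 on the Control arrays and 9.63 and 12.0 on the arrays labelled CKO (interaction -0.00, and -0.53 by a dim second probe). Birc2 had 1.06 and 1.19 against 0.957 and 0.947 (-0.18), and Birc3 had 0.150 and 0.186 against 0.155 and 0.189 (-0.02). None of these 3 reached a 2-fold TNF difference on either pair of arrays. Pik3r1, the regulatory subunit of PI 3-kinase, had 1.26 and 1.36 against 0.969 and 0.756 (-0.47), and Epas1, the hypoxia factor Hif2a, had 12.8 and 13.5 against 12.6 and 12.9 (-0.05). Over the 19 genes the study named, 14 were equal with a median of 0.03, and part of the list was chosen by the study on these samples, so it is not independent evidence.

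Traf1, an adaptor of TNF receptors with a spot in a patch, had 0.225 and 0.452 against 0.212 and 0.931 (1.12). The death receptor Fas had 2.30 and 3.73 against 2.22 and 2.10 (-0.77), and the inflammatory caspase Casp4, which rose by the mean of both genotypes, had 1.97 and 5.15 against 1.32 and 2.39 (-0.53, and -0.42 by a second probe).

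Among genes that rose with TNF, stronger responses on the arrays labelled CKO were fewer than weaker ones (5 against 10 outside patches). Both classes were read from 1 spot per array. Most calls in both directions were dim: outside patches 77 of 85 positive and 142 of 152 negative ones had a mean signal under 1. Tslp, an epithelial cytokine of allergic inflammation, had signals of 0.262 without and 0.172 with TNF on the Control arrays and of 0.122 and 1.02 on the arrays labelled CKO (interaction 3.67). Sema7a, a membrane-bound semaphorin, had 0.220 and 0.189 against 0.256 and 1.74 (2.98). Both rose on the arrays labelled CKO alone, and no signal of theirs on the Control arrays was above 0.262.

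Gjb2, the gap junction protein connexin 26, had 0.0782 and 0.0799 against 0.0485 and 0.255 (2.36). Krt18, a keratin of simple epithelia, had 0.108 and 0.113 against 0.115 and 0.558 (2.21), and Rgs16, a regulator of G-protein signalling, had 0.171 and 0.312 against 0.269 and 0.996 (1.02). Rgs16 was under 1 without scaling and in the authors' own table (lowest value 0.91), while Tslp and Sema7a passed 1 under every setting tried, and Gjb2 and Krt18 under every setting that kept them, since a minimum of -2 on the mean log2 signal leaves both out. Rgs14, another regulator of this family, had 0.0895 and 0.0829 against 0.0783 and 0.287 (1.99).

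Some brighter genes had positive interactions under 2-fold. Il1rl1, the receptor of interleukin 33, rose in both genotypes, with 4.56 and 15.1 against 3.73 and 20.5 (0.73, and 0.52 by its second probe). Errfi1, a feedback inhibitor of the EGF receptor, had 9.94 and 16.1 against 9.64 and 28.3 (0.85). The adhesion receptor Cd44 had 4.58 and 6.33 against 7.03 and 14.4 (0.57, and 0.40 by its second probe), and Itgb3, an integrin subunit, had 0.775 and 0.886 against 0.762 and 1.64 (0.91).

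Among genes outside patches with a mean signal of at least 1, 8 had an interaction at or above 1, of which 7 have a symbol and are named here after their values were seen. Cd34, a surface sialomucin of progenitor and endothelial cells, had 2.67 and 3.07 on the Control arrays and 3.61 and 9.13 on the arrays labelled CKO (1.14), and Prkg2, a kinase activated by cyclic GMP, had 2.09 and 2.03 against 2.45 and 5.04 (1.08). Both rose on the arrays labelled CKO alone. Arc, an immediate-early gene, had 3.76 and 2.21 against 3.47 and 6.08 (1.58). Msmp had 33.9 and 20.8 against 15.6 and 22.9 (1.26), Thy1, a surface glycoprotein of fibroblasts and T cells, 2.57 and 1.596 against 0.854 and 1.32 (1.31), and Lbhd2 1.99 and 1.05 against 1.57 and 1.84 (1.15). In these 4 the signal was lower with TNF on the Control arrays and higher on the arrays labelled CKO. Tox4 had 13.7 and 5.98 against 14.2 and 19.6 (1.65), but its second probe, also outside patches, had an interaction of -0.12. Without scaling Prkg2 had 0.97.

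The adhesion molecules as a list went both ways, with 6 of 20 above and 3 below 2 technical SDs, against 8.58% and 9.51% of all genes. Below was Vcam1, the endothelial adhesion ligand that NF-κB is known to induce, with 1.43 and 2.81 against 1.18 and 1.41 (-0.72, and -1.53 by its second probe). Among 11 cytokines, besides Tslp, Il34, a ligand of the macrophage growth factor receptor, had 1.13 and 1.76 against 0.750 and 1.90 (0.70), Il11, a cytokine of the interleukin 6 family, had 0.313 and 0.398 against 0.372 and 0.702 (0.57), and Il1rn, the interleukin 1 receptor antagonist, had 0.453 and 0.887 against 0.421 and 0.518 (-0.67).

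The most positive list median was that of DNA replication, at 0.29 over 37 genes, of which 35 were positive, 30 equal (81.1%, near the share of all genes) and none past 2-fold. TNF differences had a median of -0.06 on the Control arrays and 0.21 on the arrays labelled CKO. Pcna, the sliding clamp of the replication fork, had 18.1 and 18.4 against 18.96 and 24.8 (0.37). Cdt1, which licenses origins, had 5.08 and 4.65 against 5.34 and 7.97 (0.71), and Ccnd1, the G1 cyclin that the study named, had 35.7 and 34.2 against 47.6 and 70.0 (0.62). Mitosis genes, by contrast, had TNF differences of -0.03 and -0.06.

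Cartilage matrix genes had a median interaction of 0.20 over 24 genes, from -0.20 on the Control arrays and 0.07 on the arrays labelled CKO, with 16 equal (66.7%) and none past 2-fold. Hapln1, which links aggrecan to hyaluronan, had 25.8 and 19.2 against 20.8 and 18.6 (0.27). Acan, the aggrecan core protein, had 100.5 and 81.9 against 66.0 and 58.8 (0.13), and Col2a1, the main cartilage collagen, had 597 and 610 against 584 and 608 (0.03). Sox9, the regulator of cartilage genes, was equal too (0.03). Acan and Sox9 each had a spot in a patch. The summed signal of the chondrocyte markers was lower on the arrays labelled CKO already without TNF, and its part in these differences was not tested.

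**Figure D4:**
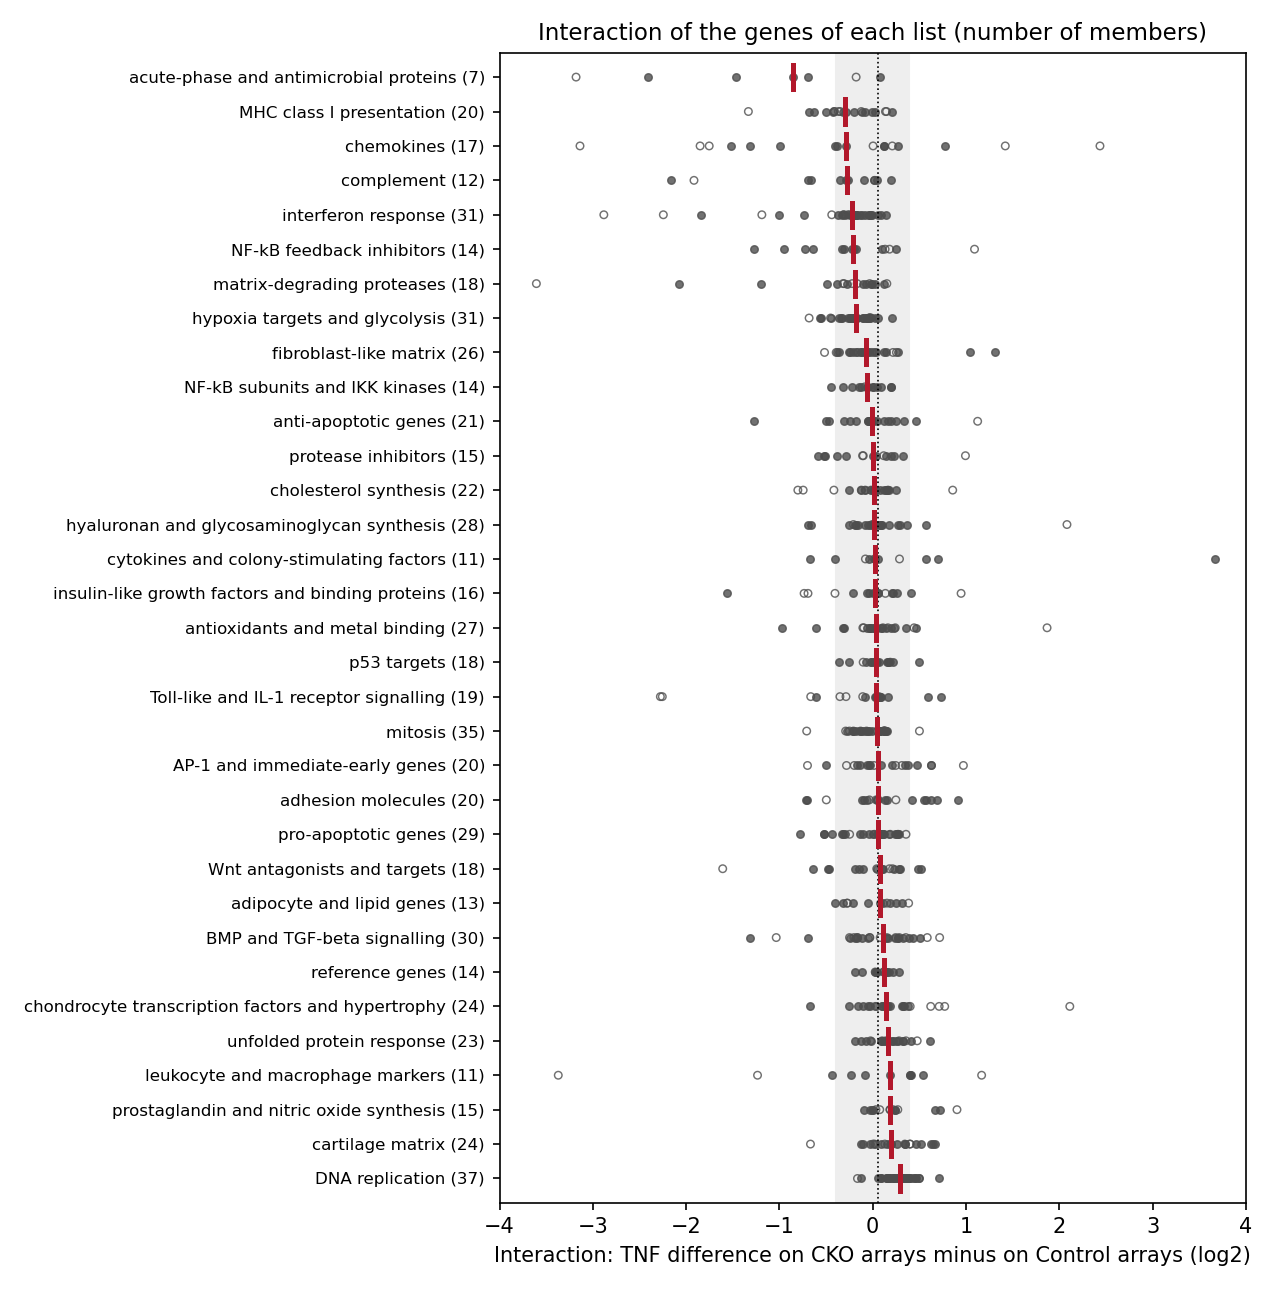
The interaction (log2) of each gene is plotted for the lists with at least 7 genes, filled points for genes with no spot in a patch and open points for the others, with the list median as a red bar, the median of all genes as a dotted line and 2 technical SDs as the grey band. The medians run from -0.86 for acute-phase proteins to 0.29 for DNA replication, and only the former lies outside the band.

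Few genes fell with TNF by the mean of both genotypes once patches were left out. Of 193 that fell (0.941%), 105 fell by at least 2-fold less and 60 by at least 2-fold more on the arrays labelled CKO, but 188 had a spot in a patch. Outside patches 5 fell (0.0335%), of which 2 have a symbol. Lgr5, a receptor of Wnt enhancers, had 0.153 and 0.0684 on the Control arrays and 0.133 and 0.0536 on the arrays labelled CKO (-0.15, equal). Meox1, a homeobox gene, had 0.283 and 0.0746 against 0.0690 and 0.0563 (1.63). Both were dim with TNF in either genotype.

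Falls on the arrays labelled CKO outside patches were mostly in dim transcripts without a symbol. Of 306 falls on these arrays (1.49%), 105 genes had no spot in a patch (0.703%), 86 of them with an interaction at or below -1, of which 6 have a symbol, and the median of the mean signals of these 86 was 0.166. A mean signal of at least 1 was reached by 4 of the 105, all of them unnamed transcripts at or below -1. The brightest of them went from 4.60 to 2.001 on the arrays labelled CKO and had 2.49 and 2.398 on the Control arrays. In all 4 transcripts the array labelled CKO without TNF had the highest signal. Another of them had 3.72 there, against 1.27 with TNF and 1.51 and 1.31 on the Control arrays. The part of that single array in these falls was not tested. On the Control arrays 276 genes fell (1.35%), and 30 (0.201%) outside patches. Rises by at least 2-fold numbered 193 (0.941%) on the Control arrays and 79 (0.385%) on the arrays labelled CKO, and outside patches 49 (0.328%) and 54 (0.362%). Outside patches the numbers of rises were thus close, although 24 of the 49 had an interaction at or below -1 and 21 of the 54 one at or above 1, to which choosing by 1 genotype alone contributes.

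Some genes of the lists could not be given an interaction because they were not well above background on all 4 arrays. Of 161 such list genes, 84 were well above background on no array. Saa3, an acute-phase protein made outside the liver, was so on the Control array with TNF alone, where its signal was 10.2 against 0.0568 without TNF and 0.00936 and 0.0164 on the arrays labelled CKO. Il6, the cytokine that drives the acute phase, was likewise so on that array alone (0.389, against 0.0191, 0.0117 and 0.0267). Serpinb2, a protease inhibitor, was so on the array labelled CKO with TNF alone (0.254, against 0.0107, 0.0172 and 0.00959), and Cxcl3, a neutrophil attractant, on both arrays with TNF (0.171 and 0.145). None of the 4 had a spot in a patch.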

How the data were processed

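The authors deposited the processed intensity of every spot of 4 one-colour Agilent arrays with 59305 transcript spots each, together with flags for outlier spots and for spots well above background. The submitters' processing notes name Agilent Feature Extraction 10.10.1.1, which subtracts background and evens out gradients over the array. The authors also deposited a table of values, which equal the processed intensity times 1 factor per array (1.77 to 1.83), the basis of which is not given in the sources used here. The 4 arrays share a slide and a scan, so neither differs between groups.

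Outlier spots (138 to 225 per array) were left out, and from each log2 intensity the array's own 75th percentile over transcript spots was subtracted. Spots of a probe were averaged, a probe counted as well above background where most of its kept spots were, and each gene was read by its brightest such probe (mean of the 4 arrays). Accessions without version were named through the RefSeq table of GRCm38.p6 (26060 of 26512 NM probes matched). The array files name mm9, so coordinates are given for the promoter table alone. The array prints 399 probes 10 times. The technical spread of each array came from those with every spot well above background and none an outlier (173 to 215). A spot lay in a patch when at least 3 of its neighbours in a window of 11 rows and 5 columns exceeded the signal of all other arrays at least 2-fold, with log2 values under -4.5 raised to it.

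The labels put 1 array in each group, so no test was run. The members, the 37 gene lists and the patches were chosen with earlier results of these data known. Genes were named by rule: those the study names, among genes with a symbol and no spot in a patch whose mean TNF difference was at least 1 in size the 10 most negative and 10 most positive interactions, up to 4 of each list by mean TNF difference, sex-linked genes, and the 5 most extreme interactions each way; others are named where a small count holds them or where said. Alternatives were in scaling, background, filter, probe summary, patches, limit and choice of responders. The counting was tested on simulated data. Python 3.11.15 (numpy 2.4.6, pandas 2.3.3, matplotlib 3.10.9) were used, with R 4.3.3 for limma 3.58.1 (normexp with offset 50, quantile).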

Additional observations from a re-analysis of the deposited data

Results flagged for a closer look

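TNF differences ran in opposite directions in the 2 genotypes, each past 2 technical SDs of a difference, in 443 of all 20506 genes (2.16%) and in 249 of the 14937 outside patches (1.67%), on 1 array per condition. The difference between genotypes was not tested. They include 17 of the genes named here. Without a spot in a patch were Tslp, with an interaction of 3.67 (TNF differences of -0.61 on the Control arrays and 3.06 on the arrays labelled CKO), and Klra1, a lectin-like receptor of natural killer cells, with -2.61 (2.05 and -0.56) from signals of 0.0758 to 0.313. Likewise without one were Tox4 at 1.65 (-1.19 and 0.46), Arc at 1.58 (-0.77 and 0.81), Thy1 at 1.31 (-0.69 and 0.63), Msmp at 1.26 (-0.70 and 0.56), Gbp6 at -1.01 (0.58 and -0.42) and Cxcl12 at -0.99 (0.66 and -0.33). With a spot in a patch were Mmp19 at -3.61 (2.52 and -1.09), Hp at -3.18 (2.78 and -0.40), Gbp3 at -2.88 (0.77 and -2.11), Il1rap at -2.26 (0.42 and -1.83), Ifi44 at -2.25 (1.52 and -0.72), Ppbp at -1.75 (1.33 and -0.42), Ccl17 at 2.44 (-2.06 and 0.37), Foxa2 at 2.11 (-1.81 and 0.30) and Slc7a11 at 1.87 (-1.53 and 0.34). The second probe of Foxa2, with no spot in a patch, had -0.88 and 0.31, an interaction of 1.20.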

How the results depend on the processing

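No paired analysis was run, since each group has 1 array and the results come from no test. Counts are given in the order interaction at or below minus the limit, at or above it, TNF-induced genes weaker and stronger, and TNF-repressed genes weaker and stronger, and were 464, 318, 68, 9, 105 and 60 as reported. Leaving out probes with a spot in a patch gave 165, 91, 10, 5, 1 and 2, and leaving out only the spots in patches, chosen after seeing the data, 166, 91, 11, 5, 1 and 2. With normexp they were 212, 164, 29, 2, 46 and 15, with a mean log2 signal of at least -2 160, 105, 23, 4, 23 and 14, and with 1 array well above background 1489, 1279, 271, 23, 624 and 554. The 1.5-fold limit gave 1127 and 844 for the first 2 counts, and the 3-fold limit 197 and 151, with 5 induced genes stronger. The array median as scale left 38 repressed genes stronger. Responders at a mean of 1.5-fold gave 116, 20, 179 and 154 for the last 4 counts, those by the Control arrays alone 147, 1, 209 and 0, and those by the CKO arrays alone 4, 34, 5 and 240. By construction, choosing on 1 genotype puts its own array error into the interaction. The chemokine median (-0.28) was 0.028 with 1 array well above background and -0.64 with a mean log2 signal of at least -2, and the leukocyte marker median (0.18) was 0.40 with the mean over probes. For these changes, apart from the patches, the filters and limits that change which genes are counted and the choice of responders, the cause was not tested.

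The median of all genes moved from 0.05 to 0.17 with the array median and to -0.06 without scaling. Under every scaling tried, the medians of the acute-phase, complement, chemokine, interferon, MHC class I, protease, hypoxia and feedback inhibitor lists stayed negative and those of DNA replication and cartilage matrix positive. Recomputing the named genes gave 1237 values, of which 67 differed by more than the technical spread and none of those past 2-fold turned sign. The 4 arrays limit what can be said: the spread between cultures is unknown, and dim probes carry most interactions past 2-fold.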

Other observations

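Igfbp3, which binds insulin-like growth factors, had signals of 0.248 and 0.781 on the Control arrays and of 0.514 and 0.550 on the arrays labelled CKO (interaction -1.56), and 10 of 16 genes of its list were equal (62.5%, against 81.9% of all genes). Ltbp2, a matrix protein of the latent TGF-beta binding family, had 18.5 and 39.9 against 32.1 and 42.6 (-0.70), a rise of 1.104 on the Control arrays from a lower signal without TNF. Slc39a8, a zinc importer, had 0.167 and 0.335 against 0.238 and 0.243 (-0.97), and Sod3, the extracellular superoxide dismutase, 39.2 and 69.8 against 44.8 and 52.5 (-0.61). Angptl4, an inhibitor of lipoprotein lipase, had 1.95 and 5.02 against 2.66 and 5.17 (-0.41).

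The unfolded protein response list had a median of 0.17 (0.05 over all genes) with 20 of 23 genes equal (87.0%), and the prostaglandin and nitric oxide list a median of 0.19 with 12 of 15 equal (80.0%). Outside patches 1965 genes had a second probe. In 9 of them the brightest probe was past 2-fold, and the second probe had the same sign in 7 and was also past 2-fold in 3.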
